A study of Mus musculus with 8 samples.

Results

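The 10 genes described here encode precursors of hypothalamic neuropeptides, which are made by neurons, and their reads were followed in libraries of sorted microglia. The members are *Pomc*, *Agrp*, *Npy*, *Cartpt*, *Oxt*, *Avp*, *Sst*, *Gal*, *Trh* and *Hcrt*, found by gene symbol, and all 10 were among the 35583 genes of the deposited count table. Microglia are the resident macrophages of the brain. They were sorted from hypothalami of wild-type young mice 20 hours after plasma protein coupled to a dye was injected, which both groups share. Microglia labelled plasma-positive (4 libraries) were compared with those labelled plasma-negative (4 libraries). The labels do not say whether the 4 libraries of a group came from separate animals, so p-values measure only the spread between these libraries, which may be technical.

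A neuropeptide is translated as a larger prohormone, sorted into dense core vesicles, cut by prohormone convertases and released to act on G protein-coupled receptors. In the hypothalamus, neurons of the arcuate nucleus that make *Pomc* and *Cartpt* products reduce feeding, and neighbouring neurons that make *Agrp* and *Npy* products promote it. *Oxt* and *Avp* encode the hormones that magnocellular neurons send to the posterior pituitary.

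Library totals ranged from 2963094 to 21422738 counts, and the smallest belonged to plasma-negative replicate 4. A gene was taken as seen at 3 or more counts, a floor worth 1.01 CPM (read counts divided by TMM-adjusted library size) in that library and between 0.133 and 0.335 CPM in the other libraries. Floors cover counting error only, since the libraries carry no molecular identifiers and several reads may stem from 1 molecule. All 10 microglia markers examined (such as *Cx3cr1*, *P2ry12* and *Tmem119*) were seen in every library. Their summed level was 69735 ± 5120 CPM in plasma-negative and 77050 ± 2188 CPM in plasma-positive libraries (SD, n = 4), and 2 of the 10, *Csf1r* and *C1qa*, rose in plasma-positive microglia (edgeR, adjusted p = 0.00489 and 0.0335), where 0.844% of all tested genes were called higher. *Cx3cr1* was the marker with the lower plasma-positive mean, at 11550 ± 494 and 10738 ± 294 CPM with no overlap, and was not called (edgeR, adjusted p = 0.232). *Csf1r* passed whichever library was left out, and *C1qa* passed only without plasma-negative replicate 1 or 4 (edgeR, adjusted p from 0.0396 to 0.101 over the 8 omissions). Plasma-positive replicate 2 stood apart with the highest level of neuronal and oligodendrocyte markers, and the values it carries most are also given without it.

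Several members' messages have sequence features that bear on what the counts can tell. The stretches below are coding sequence of the *Pomc*, *Oxt* and *Avp* transcripts in GENCODE M21 (GRCm38), written 5′ to 3′ on the gene's strand. The *Pomc* message carries the 4-codon melanocortin core, which all melanocortin peptides share, at 3 places of its exon 3. Capitals mark the core codons.
gamma-MSH region, chr12:3959986-3960027, plus strand: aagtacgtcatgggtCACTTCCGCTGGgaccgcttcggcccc
ACTH and alpha-MSH region, chr12:3960130-3960171, plus strand: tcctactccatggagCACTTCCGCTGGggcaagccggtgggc
beta-MSH region, chr12:3960322-3960363, plus strand: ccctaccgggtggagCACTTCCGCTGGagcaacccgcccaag
The codons of the core are the same bases at all 3 places. Because 1 message encodes the whole precursor, a read on *Pomc* does not tell which of these peptides would be cut from it.

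*Oxt* and *Avp* lie tail to tail on chromosome 2 and are near copies in part. The 27 bases for the hormones themselves, in exon 1 of each gene, differ at 5 bases, which are in capitals.
Oxt, chr2:130576267-130576293, plus strand: tgctacAtccagaactgcccCCTGggc
Avp, chr2:130582446-130582472, minus strand: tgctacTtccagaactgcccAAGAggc
Downstream, the part that encodes neurophysin, the carrier protein of each hormone, holds a stretch of 127 bases that is identical in both genes and spans exons 1 and 2.
shared by Oxt and Avp: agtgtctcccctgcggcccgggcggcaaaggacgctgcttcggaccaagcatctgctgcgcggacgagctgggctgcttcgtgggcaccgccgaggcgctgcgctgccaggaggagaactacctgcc
Of the 351 windows of 25 bases in the *Oxt* coding sequence, 103 (29.3%) also occur in that of *Avp*. Reads that lie wholly inside the shared stretch cannot be assigned to 1 of the genes by sequence, and the files keep only top-scoring alignments, so the split of counts between *Oxt* and *Avp* is uncertain.

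Neuropeptide RNA was found mostly in the plasma-positive libraries, at low levels and in a different mixture in each. All 10 members reached 3 counts in at least 1 plasma-positive library, and 4 members did so in a plasma-negative library. Counted over genes and libraries, 23 of 40 plasma-positive values and 6 of 40 plasma-negative values were at 3 counts or more. At a cutoff equal to the highest floor, 1.01 CPM, these numbers were 18 and 1. Plasma-negative replicate 4, the shallowest library, had 0 counts of every member. The same shares over all genes were not computed, and values from the same library are not separate observations. The summed level was 1.06, 2.01, 1.92 and 0 CPM in plasma-negative replicates 1 to 4, and 11.6, 42.5, 27.5 and 24.9 CPM in plasma-positive replicates 1 to 4. The groups did not overlap, and the log2 ratio of their means was 4.41. Without plasma-positive replicate 2 it was 4.09. The summed counts behind these levels were 89 reads in all plasma-negative and 1706 reads in all plasma-positive libraries. In bulk libraries, fewer cells that carry a transcript and less of the transcript per cell cannot be told apart.

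**Figure D1:**
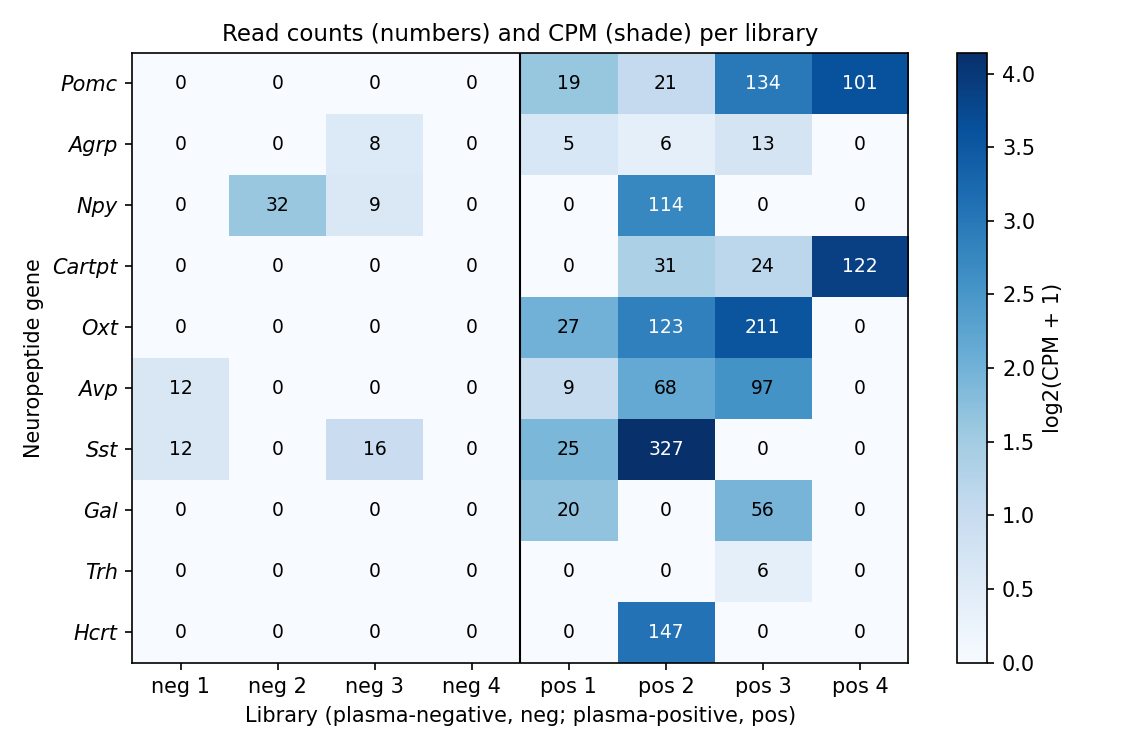
Read counts of the 10 neuropeptide genes (rows) in the 8 libraries (columns), with shade showing log2(CPM + 1). *Pomc* is the one row filled in all 4 plasma-positive libraries and empty in all 4 plasma-negative ones, and most other rows are filled in 1 to 3 plasma-positive libraries.

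All 10 members had the higher mean CPM in plasma-positive libraries, as did 63.5% of the 6567 genes that had a count but did not pass the expression filter and 54.8% of the 19844 genes with a count. The same direction was found for 14 of 14 prohormone processing genes, 19 of 20 pan-neuronal markers and 9 of the 11 further neuropeptide genes with a count. It held for 8 of the 10 members, 9 of the 14, 17 of the 20 and 7 of the 11 without plasma-positive replicate 2. The shares of all genes without that library were not computed. Of the 10, 6 had 0 counts in every plasma-negative library, against 12.6% of the genes with a count. Among those that did not pass the filter it was 5 of 9 members, against 38.1% of the 6567 genes. The filter removed 9 members, and their median number of libraries at 0 counts was 5, next to 6 for the 6567 genes that did not pass. When all genes with a count were fitted, the median log2 fold change was 5.56 over the members and 0.09 over all genes. These medians are not of like genes, since 13277 of the 19844 passed the filter and 9 of the 10 members did not. Fitted changes of members at 0 in every plasma-negative library also depend on how 0 counts are handled. All values in this paragraph are descriptions with no test over the list.

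*Pomc* (ENSMUSG00000020660, chromosome 12, 3954951 to 3960642, plus strand, 1318 bases of exon) encodes the precursor of ACTH, the melanocortins and beta-endorphin. It had 0 counts in each of the 4 plasma-negative libraries, which together held 55921631 counts. It had 19, 21, 134 and 101 counts in plasma-positive replicates 1 to 4, or 2.09, 1.07, 6.80 and 11.3 CPM. Every plasma-positive library was thus above every plasma-negative one, as for 754 of 13277 tested genes (5.68%), with replicates 3 and 4 high and replicates 1 and 2 low. The plasma-positive mean of 5.31 ± 4.70 CPM (SD, n = 4) was at least 5.26-fold higher than the highest plasma-negative floor. Of the 19844 genes with a count, 26 (0.131%) had this pattern of 0 counts in all plasma-negative and at least 3 in all plasma-positive libraries, and 7 (0.0353%) had the opposite one.

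*Pomc* was the only member that passed the expression filter, and it passed through its plasma-positive libraries alone, so it had to differ. The edgeR quasi-likelihood test gave it an adjusted p of 0.0346, past the threshold of 0.05. Of 13277 tested genes, 187 (1.41%) were called, and 112 (0.844%) were called higher in plasma-positive microglia. The split was 112 higher and 75 lower, against 64 and 163 with library totals only, 388 and 59 with limma on log2(RPKM + 1), and 332 and 362 with DESeq2. The fitted log2 fold change of *Pomc*, 9.27 with an SE of 1.66, depends on how 0 counts are handled and is not a bound. Leaving out any 1 of the 8 libraries ended the call (edgeR, adjusted p from 0.0531 without plasma-negative replicate 4 to 0.106 without plasma-positive replicate 4). It was also lost with the replicate number as a block (edgeR, adjusted p = 0.14), with limma-voom (0.13) and after a correction for exon length (edgeR, 0.0957), while over all alternatives the adjusted p ran from 1.82e-05 with DESeq2 to 0.14.

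**Figure D2:**
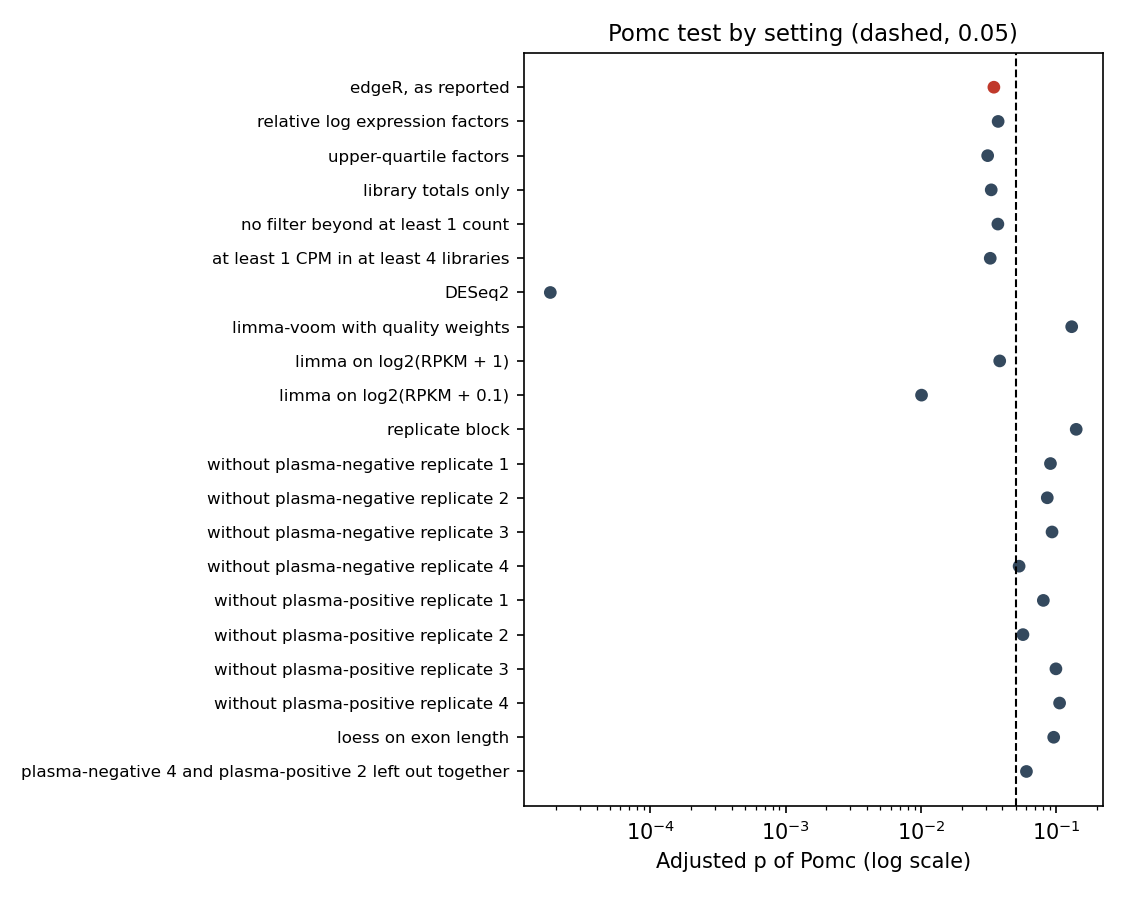
Adjusted p of *Pomc* (log scale) under the reported fit (red) and 20 alternatives, with the threshold of 0.05 as a dashed line. The 8 fits that leave out 1 library lie to the right of the line, between 0.0531 and 0.106.

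*Cartpt* (ENSMUSG00000021647, chromosome 13, 99898489 to 99901091, minus strand) encodes the CART peptides, which many arcuate *Pomc* neurons make as well. No read of it was counted in the plasma-negative group or in plasma-positive replicate 1. Plasma-positive replicates 2, 3 and 4 had 31, 24 and 122 counts, or 1.58, 1.22 and 13.6 CPM. The library with the most *Cartpt* was also the one with the most *Pomc*, and in it these 2 genes were the only members seen. The plasma-positive mean was 4.11 ± 6.38 CPM (SD, n = 4), at least 4.07-fold above the highest plasma-negative floor. That bound rests on plasma-positive replicate 4, as the other plasma-positive libraries were at most at 1.58 CPM. When all 19844 genes with a count were fitted without the filter, 185 (0.932%) were called, 104 (0.524%) of them higher, and *Pomc* was the 1 member among them. In that fit *Cartpt* missed the threshold (edgeR, adjusted p = 0.121).

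*Agrp* encodes an antagonist of melanocortin receptors and *Npy* a peptide that stimulates feeding. *Agrp* (ENSMUSG00000005705, chromosome 8, 105566698 to 105637393, minus strand) had 8 counts in plasma-negative replicate 3 and 5, 6 and 13 counts in plasma-positive replicates 1 to 3, with 0 in the other libraries. The groups overlapped, at 0.12 ± 0.23 and 0.38 ± 0.29 CPM (SD, n = 4), and with no filter the gene did not pass (edgeR, adjusted p = 0.782). Of the 1013 exon bases annotated to *Agrp*, 114 (11.3%), at chr8:105637280-105637393, are also exon of *Ctcf*, a widely expressed gene on the other strand. Some or all of these bases are also exon of *Gm5914* on the same strand. *Ctcf* had 277 to 2795 counts in the 8 libraries. Reads in bases shared with *Gm5914* cannot be assigned to *Agrp* with certainty, whatever the strand setting. Reads in bases shared only with *Ctcf* cannot be assigned if strand was ignored.

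*Npy* (ENSMUSG00000029819, chromosome 6, 49822710 to 49829507, plus strand) was the member with the most plasma-negative reads. It had 32 counts in plasma-negative replicate 2, 9 in plasma-negative replicate 3, 114 in plasma-positive replicate 2 and 0 in the other 5 libraries. In CPM these were 2.01, 0.524 and 5.80. With the groups overlapping and 3 of 4 plasma-positive libraries at 0, its means of 0.63 ± 0.95 and 1.45 ± 2.90 CPM (SD, n = 4) differed by less than their SDs (edgeR with no filter, adjusted p = 0.846). The plasma-positive mean was 0 without plasma-positive replicate 2.

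*Oxt* (ENSMUSG00000027301, chromosome 2, 130576173 to 130577054, plus strand), the oxytocin gene, was at 0 in the whole plasma-negative group and in plasma-positive replicate 4. It had 27, 123 and 211 counts in plasma-positive replicates 1 to 3, or 2.97, 6.25 and 10.7 CPM. *Avp* (ENSMUSG00000037727, chromosome 2, 130580620 to 130582554, minus strand), the vasopressin gene, had 9, 68 and 97 counts in the same 3 plasma-positive libraries, 12 in plasma-negative replicate 1 and 0 in the rest. Both genes were thus seen in the same plasma-positive libraries and ordered them alike, with the shared stretch shown above as a limit on reading them apart. The *Oxt* mean of 4.98 ± 4.59 CPM was at least 4.94-fold above the highest plasma-negative floor, and the *Avp* mean was 2.34 ± 2.25 CPM against 0.13 ± 0.27 CPM (SD, n = 4). With no filter, neither passed (edgeR, adjusted p = 0.0814 for *Oxt* and 0.356 for *Avp*).

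*Sst* (ENSMUSG00000004366, chromosome 16, 23889573 to 23890958, minus strand) encodes somatostatin, which restrains growth hormone release. It had the highest single value of any member, 327 counts or 16.6 CPM in plasma-positive replicate 2. It also had 25 counts in plasma-positive replicate 1, 12 and 16 in plasma-negative replicates 1 and 3, and 0 in the other 4 libraries. The groups overlapped, and the means were 0.37 ± 0.45 and 4.84 ± 7.96 CPM (SD, n = 4; edgeR with no filter, adjusted p = 0.361). Without plasma-positive replicate 2 the plasma-positive mean was 0.92 ± 1.59 CPM (SD, n = 3).

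The remaining members were seen in 1 or 2 libraries each, all plasma-positive. *Gal* (chromosome 19, 3409915 to 3414544), the galanin gene, had 20 and 56 counts in plasma-positive replicates 1 and 3. *Hcrt* (chromosome 11, 100761069 to 100762931), which encodes the orexins of lateral hypothalamic neurons that sustain wakefulness, had 147 counts in plasma-positive replicate 2 and 0 in all 7 other libraries. *Trh* (chromosome 6, 92242061 to 92244650), which encodes thyrotropin-releasing hormone, had 6 counts in plasma-positive replicate 3 alone. With no filter, none of these 3 passed (edgeR, adjusted p = 0.286, 0.284 and 0.416), and at an unadjusted p under 0.05 *Gal* and *Hcrt* did (0.0227 and 0.0221), as did 2920 of all 19844 genes in that fit (14.7%).

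**Figure D3:**
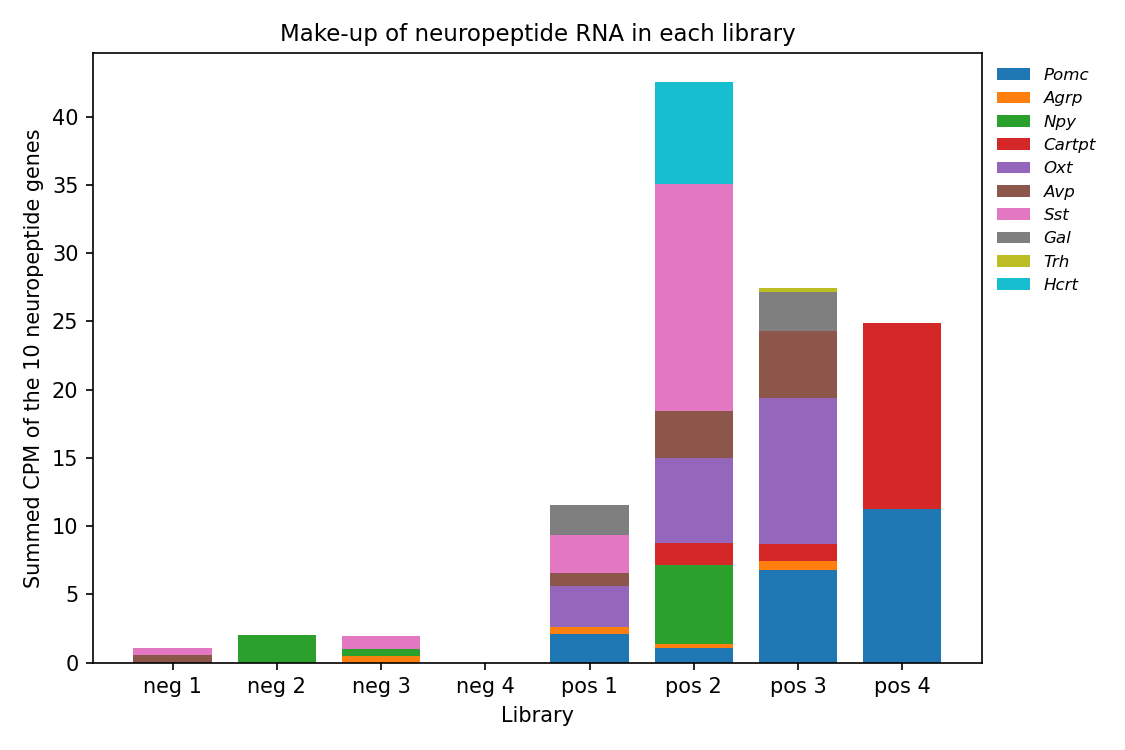
Summed CPM of the 10 neuropeptide genes in each library, divided by gene. The plasma-positive bars reach 11.6, 42.5, 27.5 and 24.9 CPM and are led by different genes, and the plasma-negative bars stay at or below 2.01 CPM.

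The leading member differed between plasma-positive libraries. *Oxt* made up 25.7% of the summed CPM in replicate 1 and 39.0% in replicate 3, *Sst* 39.1% in replicate 2 and *Cartpt* 54.7% in replicate 4. Compared per exon length, the mean plasma-positive levels in the deposited RPKM (reads scaled to exon length and library size) were ordered *Oxt* (7.48 ± 6.89), *Sst* (5.45 ± 8.99), *Avp* (3.28 ± 3.15), *Pomc* (3.17 ± 2.76), *Cartpt* (2.51 ± 3.86), *Npy* (2.08 ± 4.17), *Hcrt* (2.03 ± 4.06), *Gal* (1.28 ± 1.51), *Agrp* (0.30 ± 0.23) and *Trh* (0.044 ± 0.088) (SD, n = 4). Neighbours in this order differed by less than the larger of their SDs, except *Agrp* and *Trh*, which differed by more than either SD. Without plasma-positive replicate 2 the first 4 were *Oxt*, *Pomc*, *Cartpt* and *Avp*, *Sst* was sixth at 1.02 ± 1.76 RPKM (SD, n = 3), and *Npy* and *Hcrt* were at 0.

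Among the tested genes most like *Pomc* over the 8 libraries, by Pearson correlation of log2 CPM, was *Sdf4*, which encodes a calcium-binding protein of the Golgi, with r = 0.98. This is a description over libraries that fall into 2 groups, with 13277 genes tested, and no p is given. *Sdf4* was at 205 to 224 CPM in plasma-negative and 288 to 337 CPM in plasma-positive libraries, so the groups did not overlap.

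Other genes of the peptidergic pathway were mostly below the filter. Of 20 further hypothalamic neuropeptide genes, 11 had a count, 1 was tested and 0 were called, and 9, among them *Crh*, *Vip* and *Gnrh1*, had 0 counts throughout. *Cck*, the tested one, had 60 and 26 counts in plasma-negative replicates 1 and 2, 77 and 346 in the same replicates of the plasma-positive group, and none elsewhere (edgeR, adjusted p = 0.617). *Pdyn*, the prodynorphin gene, had 323 of its plasma-positive counts in replicate 3, 53 in replicate 2 and 4 in replicate 1, against 24 in plasma-negative replicate 1. *Pmch*, the melanin-concentrating hormone gene, and *Tac1*, which encodes substance P, reached 86 and 129 counts in plasma-positive replicate 2. The summed level of the 20 genes was 4.15 ± 2.84 CPM in plasma-negative and 18.1 ± 13.1 CPM in plasma-positive libraries (SD, n = 4), with plasma-positive replicate 4, at 4.36, inside the plasma-negative range.

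Most genes that process and store prohormones were seen in both groups, but *Pcsk1*, *Ptprn2*, *Scg3* and *Vgf* did not reach 3 counts in any plasma-negative library. All 14 genes of the list had a count, 6 were tested and 0 were called by edgeR. At an unadjusted p under 0.05 there were 2 of the 6, against 1831 of all 13277 tested genes (13.8%). *Cpe*, a carboxypeptidase that trims cut peptides, had 22.5, 0.378, 4.19 and 0.673 CPM in plasma-negative and 39.8, 59.4, 8.02 and 14.4 CPM in plasma-positive replicates 1 to 4, so the groups overlapped (edgeR, adjusted p = 0.405). *Scg2*, a granin of dense core vesicles, did not overlap between groups, at 0.44 ± 0.45 and 6.83 ± 5.20 CPM (SD, n = 4), and did not pass (edgeR, adjusted p = 0.125). *Pcsk1n* and *Scg5*, which bind the convertases, had their highest values, 51.9 and 17.8 CPM, in plasma-positive replicate 2. The summed level of the list was 16.4 ± 15.9 CPM in plasma-negative and 82.8 ± 82.6 CPM in plasma-positive libraries (SD, n = 4), or 43.7 ± 32.8 CPM without plasma-positive replicate 2 (SD, n = 3).

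Receptors of the 10 peptides were scarcely detected. Of 22 receptor genes, 12 had 0 counts in every library, including *Mc3r*, *Mc4r*, *Oxtr*, *Avpr1a* and both orexin receptors, 1 was tested and 0 were called. The tested one, *Oprm1*, the mu opioid receptor on which beta-endorphin acts, had 3 to 21 counts in plasma-negative and 4 to 83 counts in plasma-positive libraries (edgeR, adjusted p = 0.689). *Galr1* had 41 counts in plasma-positive replicate 4, a library with 0 counts of *Gal*. *Npy2r* had 17 and 7 counts in plasma-positive replicates 1 and 2, and *Npy1r* had most of its reads, 27, in plasma-negative replicate 2. The summed receptor level did not overlap between groups, by a small margin, at 0.175 to 2.36 CPM in plasma-negative and 2.42 to 7.26 CPM in plasma-positive libraries.

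Markers of other cells moved with the neuropeptides in some libraries and not in others. The 20 pan-neuronal markers were all seen in plasma-positive replicate 2, and none was at 0 throughout. Of these, 13 were tested and 0 were called by edgeR, and 2 of the 13 were at an unadjusted p under 0.05, against 13.8% of all tested genes. Their median log2 fold change was 2.34, or 0.72 without plasma-positive replicate 2, and 19 of the 20 had the higher mean in plasma-positive libraries. Over replicates 1 to 4, their summed level was 97.8, 52.4, 49.7 and 36.0 CPM in the plasma-negative group. In the plasma-positive group it was 174, 651, 32.5 and 31.8 CPM, with a mean of 222 ± 293 CPM (SD, n = 4), or 79.5 ± 82.0 CPM without replicate 2 (SD, n = 3), against 59.0 ± 26.9 CPM in the plasma-negative group (SD, n = 4). Plasma-positive replicates 1 and 2 were above, and replicates 3 and 4 below, every plasma-negative library, but without *Elavl4* replicate 3, at 26.6 CPM, was above plasma-negative replicate 4, at 20.2 CPM. *Snap25*, a synaptic SNARE protein, was at 38.3 and 124 CPM in the first 2, at 0 in replicate 3 and at 0.894 CPM in replicate 4. Not every marker was low there. *Stmn3*, a stathmin family gene, was at 6.29 and 3.91 CPM in replicates 3 and 4 and at most at 1.42 CPM in the plasma-negative group, with no overlap, and was not called (edgeR, adjusted p = 0.108). *Nefl*, a neurofilament gene, was at 3.35 CPM in replicate 3, above the plasma-negative maximum of 1.35 CPM.

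**Figure D4:**
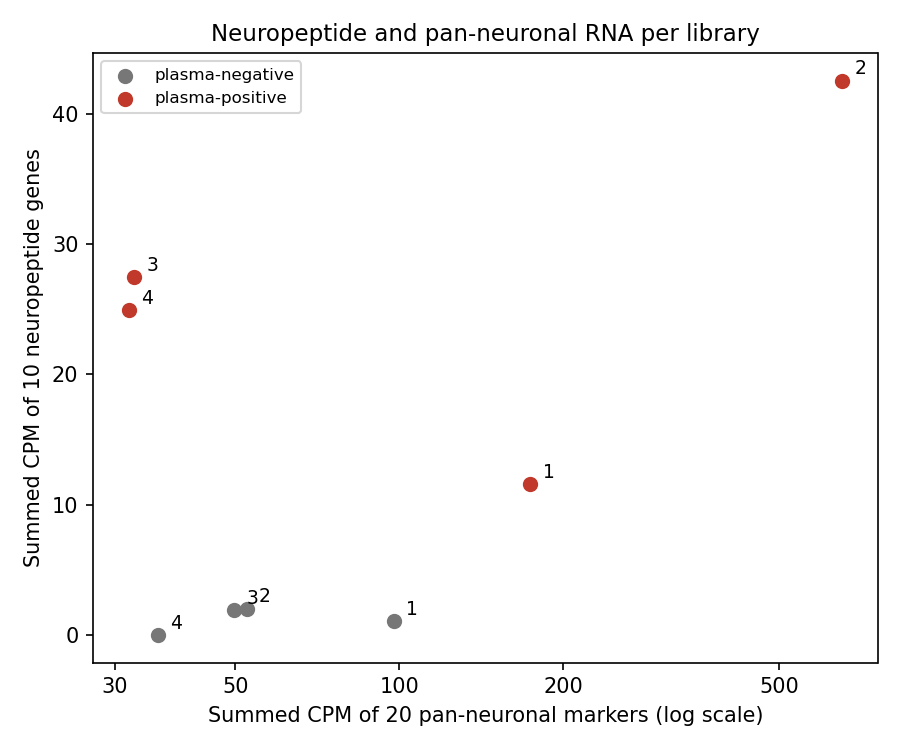
Summed CPM of the 10 neuropeptide genes against that of 20 pan-neuronal markers (log scale), with 1 point per library labelled by replicate number. Plasma-positive replicates 3 and 4 combine 27.5 and 24.9 CPM of neuropeptide RNA with 32.5 and 31.8 CPM of pan-neuronal RNA, and the plasma-negative libraries have 36.0 to 97.8 CPM of the latter with at most 2.01 CPM of the former.

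Set against the pan-neuronal markers, neuropeptide RNA was present in unequal proportions. It amounted to 6.63 and 6.54 CPM per 100 CPM of pan-neuronal RNA in plasma-positive replicates 1 and 2, and to 84.4 and 78.2 in replicates 3 and 4. In plasma-negative replicates 1 to 4 it was 1.09, 3.84, 3.87 and 0. *Elavl4* was the leading pan-neuronal marker in all 4 plasma-negative libraries, at 26.9% to 43.9% of the sum, and in plasma-positive replicate 4, at 40%. Without it the plasma-positive values were 7.09, 6.79, 103 and 130 against 0 to 5.40. All 4 plasma-positive libraries were above all 4 plasma-negative ones by either measure. The 2 libraries with the most *Pomc* were the 2 with the least pan-neuronal RNA of all 8 when *Elavl4* was counted, and without it plasma-negative replicate 4 lay between them.

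**Figure D5:**
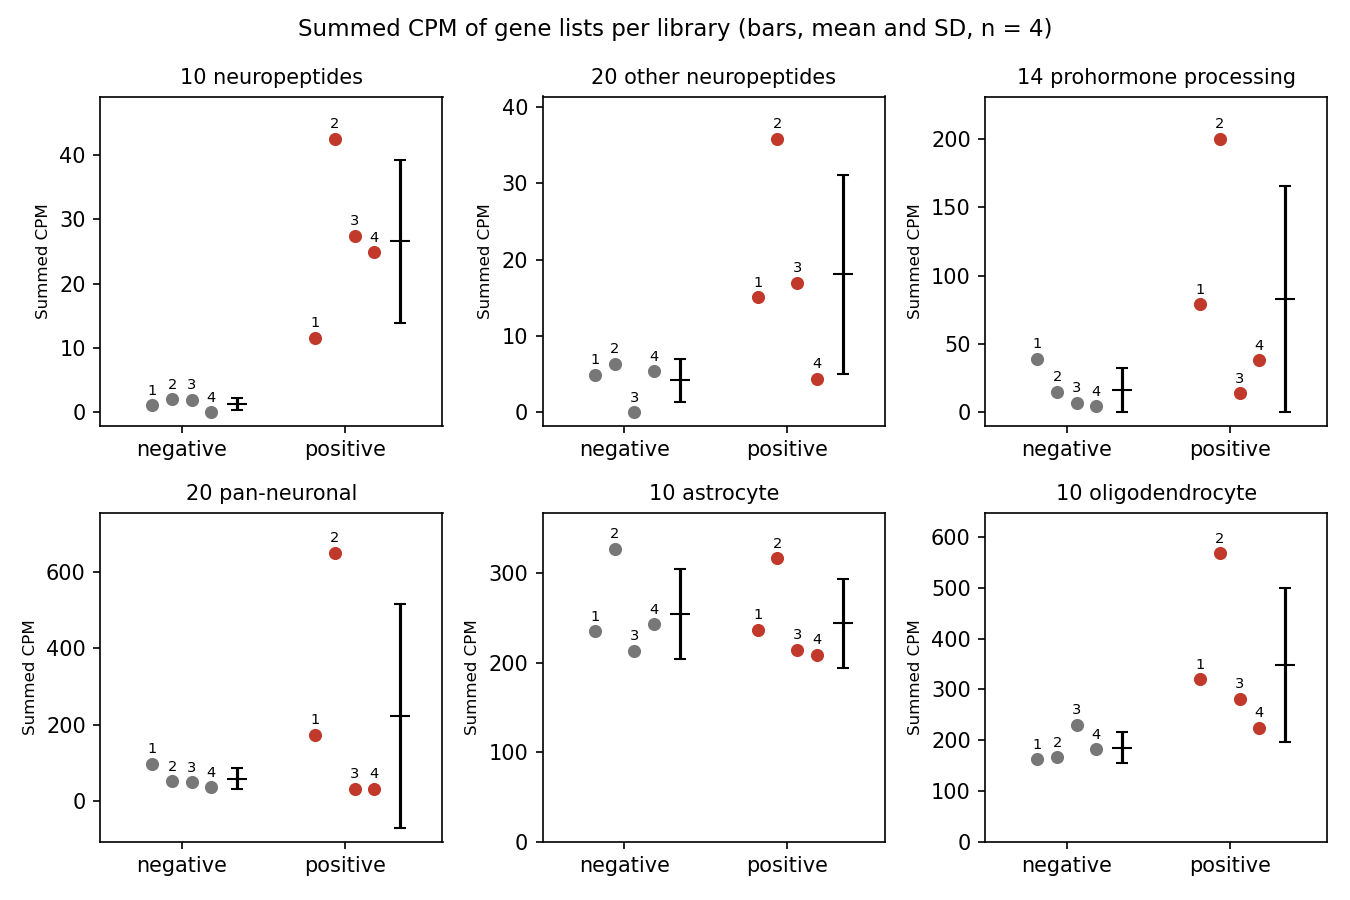
Summed CPM of 6 gene lists per library, with points labelled by replicate number and bars giving mean and SD (n = 4). In the panel of the 10 neuropeptides the groups do not overlap, with a highest plasma-negative value of 2.01 CPM and a lowest plasma-positive value of 11.6 CPM.

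Of 10 oligodendrocyte markers, 9 had the higher mean in plasma-positive libraries, 7 were tested, with a median log2 fold change of 1.72 (0.43 without plasma-positive replicate 2) and 3 at an unadjusted p under 0.05, and 1 was called (1.41% of all tested genes were). The called one was *Mal*, a myelin protein gene, at 0.07 ± 0.12 and 9.92 ± 11.7 CPM (SD, n = 4; edgeR, adjusted p = 0.0325). Like *Pomc*, it passed the filter through its plasma-positive libraries alone, so it had to differ. *Cnp*, a myelin enzyme, did not overlap between groups, at 98.9 ± 28.7 and 161 ± 14.3 CPM, and was not called (edgeR, adjusted p = 0.113). Without plasma-positive replicate 2 the plasma-positive mean of *Mal* was 4.16 ± 2.78 CPM (SD, n = 3), and the call held only without plasma-negative replicate 2 or plasma-positive replicate 3 (edgeR, adjusted p from 0.048 to 0.151 over the 8 omissions). The summed oligodendrocyte level was 163 to 230 CPM in plasma-negative and 224 to 568 CPM in plasma-positive libraries. The 10 astrocyte markers gave 214 to 328 and 209 to 317 CPM, mostly from *Slc1a3*, at 238 ± 54.3 and 185 ± 14.7 CPM. Of these markers, 6 were tested and 0 were called by edgeR, with 3 at an unadjusted p under 0.05 (13.8% of all tested genes were) and a median log2 fold change of 1.94 (0.89 without plasma-positive replicate 2), and 7 of the 10 had the higher mean in plasma-positive libraries. Of the 3, *Slc1a2* and *Aldoc* were higher and *Slc1a3* was lower in plasma-positive libraries. *Slc1a2*, a glutamate transporter, was at 3.60 ± 3.08 and 22.6 ± 31.1 CPM, and *Aldoc*, a glycolytic enzyme, at 5.79 ± 3.40 and 17.6 ± 16.3 CPM (SD, n = 4). Without plasma-positive replicate 2 their plasma-positive means were 7.62 ± 10.2 and 9.49 ± 1.41 CPM (SD, n = 3). The 10 endothelial markers (3 tested, 0 called) gave 46.1 to 79.7 and 46.0 to 85.6 CPM, with *Tek* at 0 throughout. Of the 9 endothelial markers with a count, 7 had the higher mean in plasma-positive libraries, and 5, among them *Cldn5* and *Ly6c1*, had 0 counts in every plasma-negative library. Over all genes with a count these shares were 54.8% and 12.6%, and among those that did not pass the filter 63.5% and 38.1%. Ependymal and tanycyte markers (10 listed, 1 tested, 0 called) gave 9.78 to 15.3 and 17.3 to 50.1 CPM, with *Foxj1* and 4 others at 0. The groups did not overlap, but without *Ttr*, which the choroid plexus makes in quantity, plasma-positive replicate 1, at 14.4 CPM, lay below the highest plasma-negative library. Plasma-positive replicate 2 had the highest level of the pan-neuronal, oligodendrocyte, ependymal and prohormone lists. The part of cells other than microglia in the neuropeptide counts was not tested.

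*Pomc* is also made by pituitary corticotrophs and melanotrophs, and of 12 pituitary markers, 8, among them *Gh*, *Prl*, *Pitx1* and *Pax7*, had 0 counts in every library. The sum of that list was 0.051 to 0.220 CPM in plasma-positive libraries and 0 to 2.02 CPM in plasma-negative ones, and *Tbx19*, the factor that drives pituitary *Pomc*, had 6 counts in plasma-negative replicate 4 and 0 in the other 7 libraries. Red cell markers (7 in the table, 0 tested) summed to 0.673 to 2.26 CPM and 0 to 4.82 CPM. Border macrophage markers (10 listed, 2 tested, 0 called) gave 208 to 273 and 180 to 238 CPM, nearly all from *Stab1*, while *Cd163* and *Lyve1* had 0 counts. *Mrc1*, the mannose receptor gene, was at 1.06 ± 1.24 and 7.66 ± 7.13 CPM (SD, n = 4), highest at 12.1 and 15.3 CPM in plasma-positive replicates 2 and 4, and was not called (edgeR, adjusted p = 0.429). Of the 12 transcription factors and receptors that mark hypothalamic regions, 7 had a count and 0 were tested. *Otp* had 16 counts in plasma-negative replicate 2 and 15 in plasma-positive replicate 2, and *Lhx9* had 30 in the latter alone. *Six3* had 9 and 51 counts in plasma-positive replicates 1 and 2, and *Isl1*, a factor of arcuate *Pomc* neurons, 9 counts in plasma-positive replicate 4.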

How the data were processed

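Smart-seq2 libraries of sorted microglia (4 per group, grouped by title) were analysed from deposited tables. The authors deposited whole-number read counts per gene and RPKM values. The column headers say top-hit alignments were kept, and the submitters' processing notes name bcl2fastq, Trim Galore, STAR, HTSeq and mm10 without versions or roles. Strand setting and multi-mapping rule are not given in the sources used here. Counts were tested with edgeR 4.0.16 (R 4.3.3; TMM, default group filter with a minimum count of 10, quasi-likelihood F test of group, Benjamini-Hochberg adjustment over 13277 genes, threshold 0.05). CPM are counts over TMM-scaled totals, and logs use a prior count of 2. The fit was tested on simulated data. Alternatives were other scalings, filters, DESeq2 1.42.0, limma 3.58.1 (voom with quality weights, and log2(RPKM + 1) or log2(RPKM + 0.1)), a replicate block, thinning, an exon-length loess (span 0.3), leaving out each library, and, chosen after seeing the data, leaving out plasma-negative replicate 4 with plasma-positive replicate 2, and means without the latter.

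The 10 members and the 13 other lists (further neuropeptides, prohormone processing, receptors, pan-neuronal, hypothalamic, pituitary, astrocyte, oligodendrocyte, endothelial, ependymal, red cell, border macrophage and microglia genes) were chosen with earlier results of these data known. Named genes are the members, the 4 genes of each list with the highest mean CPM, called genes, and the 3 tested genes most like *Pomc*, of which only *Sdf4* is reported here. Others were named after their values were seen. Of the table's 35583 genes, 35546 were in GENCODE M21, which gave exon lengths.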

Additional observations from a re-analysis of the deposited data

Results flagged for a closer look

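In 10 groups of 4 libraries, 1 library lay far from the other 3 by Dixon's criterion. In 6 of them the other 3 libraries were at 0, where the criterion is always met, so the rate of about 5% that chance gives does not apply. The remaining 4 came from 36 groups with a spread and fewer than 3 libraries at 0. *Hcrt* was at 7.47 CPM and *Npy* at 5.80 CPM in plasma-positive replicate 2, and *Trh* at 0.305 CPM in plasma-positive replicate 3, each with the other 3 plasma-positive libraries at 0. In the plasma-negative group, *Avp* was at 0.531 CPM in replicate 1 and *Agrp* at 0.466 CPM in replicate 3, with the others at 0. *Cartpt* was at 13.6 CPM in plasma-positive replicate 4, against 1.58 in the nearest library, and *Sst* at 16.6 CPM in plasma-positive replicate 2, against 2.75.

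Of the lists, hypothalamic regulators summed to 1.01 CPM in plasma-negative replicate 2, with 0 in the other plasma-negative libraries. In plasma-negative replicate 4, the shallowest library, pituitary markers summed to 2.02 CPM, against 0.189 in the nearest, which rests on the 6 counts of *Tbx19*, and microglia markers to 77364 CPM, against 68025.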

How the results depend on the processing

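The log2 ratio of the summed neuropeptide CPM, 4.41, moved by less than the spread between replicates under the scalings, summed RPKM, thinning and the omissions of libraries (4.00 to 4.74 when 1 library was left out). It was lowest, at 3.68, with plasma-negative replicate 4 and plasma-positive replicate 2 left out together. The count of called genes, 187, was 694 with DESeq2, 447 with log2(RPKM + 1), 432 with log2(RPKM + 0.1), 16 with the exon-length loess, and 66 to 203 when 1 library was left out (203 without plasma-negative replicate 4, at most 93 without any of the others). With plasma-negative replicate 4 and plasma-positive replicate 2 both out it was 65. The number of members called, 1, fell to 0 with limma-voom, thinning (where *Pomc* did not pass the filter), the loess, each omission of 1 library (0 to 0) and the omission of both. *Pomc* kept its call in 8 of the 20 alternatives that tested it, and its sign is fixed by the 0 counts in the plasma-negative group. Its fitted log2 fold change without a call was 5.68 with voom, 9.28 with the loess, 9.71 with both libraries out and 8.67 to 9.61 with 1 library out. The cause was not tested. Scaling by totals alone shifted the median log2 change of all genes to -0.11, and log2(RPKM + 1) and log2(RPKM + 0.1) to 0.11 and 0.16.

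A replicate block lowered the calls to 74 genes and 0 members, and *Pomc* had a log2 fold change of 8.62. The numbers come from titles alone. Same-numbered libraries deviated from their group means with correlations of 0.011 to 0.031, and 3 of 8 libraries correlated best with their own number, so pairing was not shown. Depth limits the members most in plasma-negative replicate 4, where 0 counts allow up to 1.01 CPM.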

Other observations

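*Qrfp*, the gene of a further feeding-related hypothalamic peptide, named after its values were seen, had 52 counts in plasma-negative replicate 2 and 0 in the other 7 libraries. *Ttr*, the transthyretin gene of the choroid plexus, was below the filter, with 0.132 ± 0.169 CPM in plasma-negative and 12.2 ± 13.6 CPM in plasma-positive libraries (SD, n = 4). Its groups did not overlap, and it was highest, at 29.1 and 17.4 CPM, in plasma-positive replicates 2 and 1, the libraries with the most pan-neuronal RNA, and low, at 1.83 and 0.559 CPM, in replicates 3 and 4. *Clec4n*, a border macrophage marker, had 100 counts in plasma-negative replicate 3 and 0 in the other 7 libraries.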
